A study of Mus musculus with 16 samples.

Results

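Collagens are the proteins that give extracellular matrix its fibrils and sheets. Each collagen is a rope of 3 chains, and the chains are encoded by the genes described here. All entries whose symbol consists of Col, a type number, the letter a and a chain number were taken, which gave 44 genes among the 23420 gene entries of the read count table. No measured value entered this choice, and all 44 also had a deposited RPKM value. Fibrillar collagens such as types I, III and V form the cables of connective tissue. Type IV forms the network of basement membranes, on which epithelia rest, and type VI forms beaded filaments next to basement membranes. In the thymus, fibroblasts are known as a source of fibrillar collagen, and thymic epithelial cells adjoin basement membranes and express matrix genes themselves. A collagen messenger level does not measure deposited protein.

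RNA was sequenced from thymic epithelial cells of mice, the stromal cells that guide T cell development, in 16 libraries. The populations were cTEC, from the cortex, and mTEClo and mTEChi, medullary cells with little or much MHC class II on their surface. They came from wild-type mice (WT, labelled psmb11 +/+) and from mice without Psmb11 (KO, labelled psmb11 -/-). Psmb11 encodes the proteasome subunit beta5t, which is known from cTEC. There were 2 libraries of each genotype for cTEC and 3 for mTEClo and mTEChi. All groups carry the strain label C57BL/6-derived BAC and an age of 6 to 8 weeks. The extraction protocol states instead an age of 7 days and 14 mice, and the series text 11 thymi. Whether a library holds pooled mice is not given in the sources used here, so p-values measure only the spread between these libraries. Sorted cells were negative for CD45, a leukocyte surface protein, and positive for EpCAM, an epithelial one. The cTEC were also positive for Ly51 and negative for the lectin UEA1, and the mTEC the reverse.

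Libraries held 64753610 to 146707262 reads assigned to genes, and 13.7% to 30.4% of reads lay in no gene, the highest share being in cTEC KO 1. Psmb11 was at 174 and 146 counts scaled to library size (CPM) in WT cTEC, and at 2.102 and 0 in KO cTEC. It was at 7.77 to 12.6 CPM in WT medullary libraries and at 0.713 to 1.60 CPM in KO ones. All 8 cortical markers were higher in WT cTEC than in WT mTEClo, and 5 were higher than in WT mTEChi, where Dll4 was lower and Ccl25 and Foxn1 were not called. Of the 10 medullary markers, 8 were higher in WT mTEChi than in WT mTEClo. The 2 that were lower were the keratin genes Krt5 and Krt14. The epithelial markers summed to 3334 CPM or more in every library. The spread between libraries was wider in cTEC, with a biological coefficient of variation of 0.652, than in mTEClo (0.131) or mTEChi (0.113).

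Collagen messengers were most abundant in mTEClo and least abundant in mTEChi. RPKM, the authors' read number scaled by gene length and sequencing depth, allows genes to be compared. Summed over the 44 genes, RPKM was 676 and 617 in WT cTEC, 1054, 1072 and 984 in WT mTEClo, and 324, 316 and 339 in WT mTEChi. KO libraries summed to 705 and 832 in cTEC, 1017, 1074 and 1136 in mTEClo, and 350.3, 339 and 336 in mTEChi. No library of one population reached the range of another. Counted as reads, collagen genes took 0.483% to 0.624% of all gene reads in cTEC, 0.649% to 0.720% in mTEClo and 0.271% to 0.288% in mTEChi.

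A pair of type VI genes accounted for much of that order. Col6a1 and Col6a2 together made up 33.4% and 35.3% of collagen RPKM in WT cTEC, 59.96% to 60.8% in WT mTEClo and 11.5% to 12.6% in WT mTEChi. The pair of type IV genes Col4a1 and Col4a2 made up 16.03% to 22.8% in every library. Summed over fibrillar genes, the populations lay close, with 54.6 to 70.5 RPKM in WT cTEC, 70.0 to 74.1 in WT mTEClo and 79.2 to 87.3 in WT mTEChi. Fibril-associated genes behaved likewise, with 64.1 to 76.8 RPKM across all WT libraries.

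**Figure D1:**
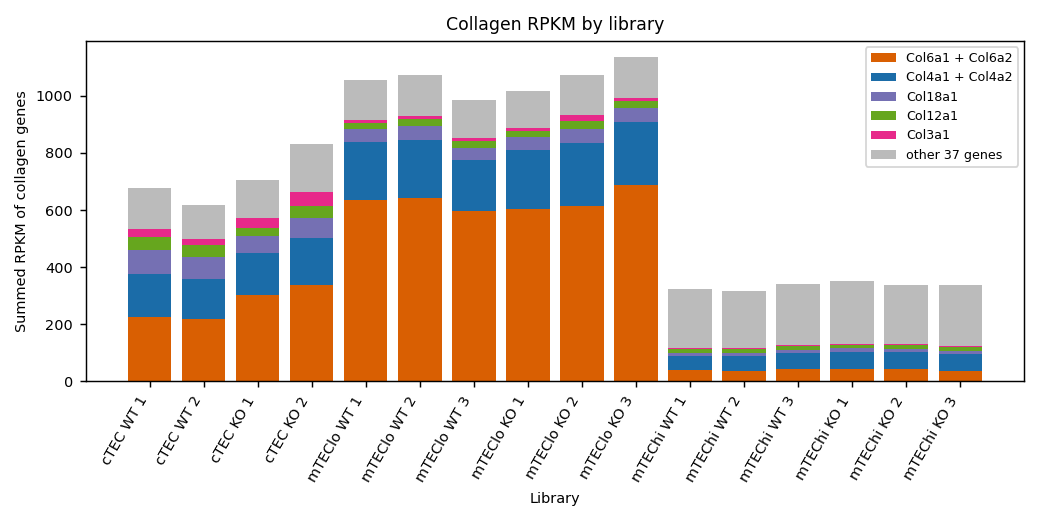
Summed RPKM of the 44 collagen genes in each of the 16 libraries (vertical axis, linear), divided into Col6a1 plus Col6a2, Col4a1 plus Col4a2, Col18a1, Col12a1, Col3a1 and the other 37 genes. The 6 mTEClo bars stand between 984 and 1136, the 4 cTEC bars between 617 and 832, and the 6 mTEChi bars between 316 and 350.3, where the Col6a1 and Col6a2 part is thin.

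The populations differed gene by gene, as tested with edgeR on read counts at an adjusted p of 0.05. WT cTEC against WT mTEClo gave 15 collagen genes higher and 12 lower of 44, against 13.1% and 14.4% of all genes, 27.5% together. WT cTEC against WT mTEChi gave 13 higher and 17 lower of 44, against 28% and 36.5% of all genes, 64.6% together. WT mTEChi against WT mTEClo gave 22 higher and 17 lower of 44, against 42.8% and 36.8% of all genes, 79.6% together. The collagen shares of calls thus stood at 61.4%, 68.2% and 88.6%. Their median log2 fold changes were −0.10, −0.49 and 0.41, beside −0.01, −0.24 and 0.08 for all genes. These comparisons share their WT libraries, so their counts are not independent of each other. Each fit shared its estimate of spread between the populations compared, so p-values involving the more variable cTEC can be too small.

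Each population stood above both others for some chains. WT cTEC did so by the test for 8 of 44 genes, against 10.4% of all genes: Col3a1, Col4a5, Col4a6, Col7a1, Col8a2, Col12a1, Col18a1 and Col23a1. WT mTEClo stood above both others for another 8, against 6.53% of all genes, namely Col2a1, Col4a1, Col6a1, Col6a2, Col6a4, Col8a1, Col9a3 and Col16a1. WT mTEChi stood above both others for 12, against 25.3% of all genes, namely Col1a1, Col5a3, Col6a3, Col6a5, Col9a1, Col9a2, Col10a1, Col11a1, Col14a1, Col22a1, Col24a1 and Col26a1. The other 16 had no population above both others by the test. Of the genes highest in cTEC, Col3a1 lost this place without cTEC WT 1, and of those highest in mTEChi, Col6a3 lost it without cTEC WT 2 (−1.20 for cTEC against mTEChi, adjusted p = 0.0639). Col9a2 lost it without mTEClo WT 1, mTEClo WT 3, mTEChi WT 2 or mTEChi WT 3 (0.20 to 0.25 for mTEChi against mTEClo, adjusted p = 0.0979 to 0.150). In WT mTEChi, 33 collagen genes had a mean of at least 1 RPKM, against 26 in WT cTEC and 27 in WT mTEClo, while the highest gene there reached only 36.6 RPKM.

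**Figure D2:**
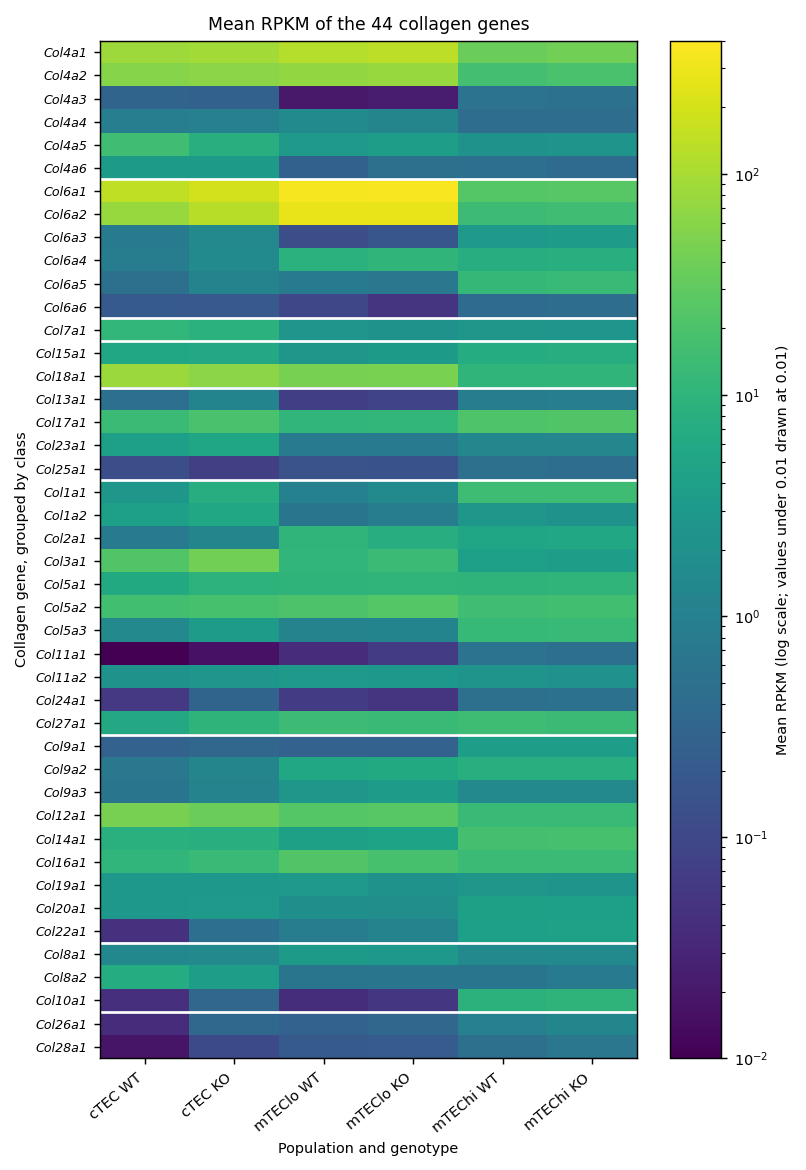
Mean RPKM of each collagen gene (rows, grouped by class and divided by white lines) in the 6 groups of population and genotype (columns), on a log colour scale with values under 0.01 drawn at 0.01. Col6a1 and Col6a2 are brightest in mTEClo, Col10a1 is bright in mTEChi alone, and WT and KO columns of mTEClo and of mTEChi look alike.

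Type VI collagen was the class whose summed RPKM differed most in absolute size, from 57.8 to 65.2 in WT mTEChi to 607 to 653 in WT mTEClo. In it the chains of Col6a1 and Col6a2 combine with a further chain, from Col6a3, Col6a4, Col6a5 or Col6a6. Col6a1 (mm10, chr10:76708792-76726044, minus strand) read 145 and 139.9 RPKM in WT cTEC, 356, 356 and 335 in WT mTEClo and 24.3, 23.04 and 26.2 in WT mTEChi. In KO libraries it read 186 and 201 in cTEC, 347, 344 and 380.04 in mTEClo and 26.97, 26.4 and 23.6 in mTEChi. The populations did not overlap, with mTEClo highest and mTEChi lowest. WT mTEClo was 15.9-fold above WT mTEChi, a log2 value for mTEChi of -3.99 (SE 0.08, adjusted p = 1.02e-14). WT cTEC differed from WT mTEClo by -1.22 (SE 0.09, adjusted p = 9.2e-06) and from WT mTEChi by 2.72 (SE 0.08, adjusted p = 3.6e-08).

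Col6a2 (chr10:76595756-76623404, minus strand), its partner chain, followed the same order. It read 80.3 and 77.6 RPKM in WT cTEC, 279, 287 and 263 in WT mTEClo and 13.9, 13.3 and 16.5 in WT mTEChi. The KO values were 118 and 137 in cTEC, 256, 272 and 306 in mTEClo and 15.3, 16.4 and 13.99 in mTEChi. Again no population overlapped another. Its log2 fold change was -4.41 (SE 0.11, adjusted p = 2.91e-14) for WT mTEChi against WT mTEClo, -1.73 (SE 0.11, adjusted p = 4e-06) for WT cTEC against WT mTEClo and 2.62 (SE 0.10, adjusted p = 1.27e-07) for WT cTEC against WT mTEChi. The ratio of Col6a1 to Col6a2 in RPKM stayed between 1.24 and 1.81 in all 16 libraries. The genes lie on one strand with 85387 bases between them.

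The promoters of Col6a1 and Col6a2 are shown because these genes had the highest group means of all collagen genes, in mTEClo, and had the same order of populations. Each stretch runs from 250 bases before to 50 bases after the RefSeq start (GRCm38.p6), 5′ to 3′ on the gene's strand. Capitals mark matches to GGGCGG, the GC box, on either strand. The letters CCAAT, known as the CCAAT box, were searched as well, and so was the TATA box, spelled TATAAA, with overlapping matches allowed.
Col6a1 (chr10:76725995-76726294, minus strand): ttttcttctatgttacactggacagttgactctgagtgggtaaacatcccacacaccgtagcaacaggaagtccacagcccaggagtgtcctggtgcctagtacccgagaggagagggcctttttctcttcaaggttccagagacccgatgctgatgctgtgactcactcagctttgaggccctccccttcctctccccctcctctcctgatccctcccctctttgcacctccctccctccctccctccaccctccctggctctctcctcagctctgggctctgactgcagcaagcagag
Col6a2 (chr10:76623355-76623654, minus strand): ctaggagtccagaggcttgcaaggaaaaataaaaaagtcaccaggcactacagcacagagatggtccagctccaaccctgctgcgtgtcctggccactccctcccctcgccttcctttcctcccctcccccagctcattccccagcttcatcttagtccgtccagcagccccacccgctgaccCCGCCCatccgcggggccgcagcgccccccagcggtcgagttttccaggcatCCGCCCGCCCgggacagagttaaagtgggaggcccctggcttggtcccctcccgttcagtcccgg
The Col6a1 window held none of the 3 motifs and the Col6a2 window held 3 GC boxes, of which the last 2 overlap. A further RefSeq start of Col6a2, with its window at chr10:76623581-76623880, is not shown and held 1 GC box. The GC box was in 35.7% of 32851 promoters of this length and in 23 of 38 collagen promoters. The CCAAT box was in 37.4% and the TATA box in 13.6% of all promoters, and in 13 and 5 of the collagen promoters. These 38 promoters belong to 35 of the 44 genes.

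The genes of that further chain differed between populations in another order. Col6a5 (chr9:105856070-105960643) read 0.545 and 0.443 RPKM in WT cTEC, 0.740, 0.818 and 0.758 in WT mTEClo and 12.4, 10.9 and 11.6 in WT mTEChi. Its KO values were 1.12 and 1.14 in cTEC, 0.585, 0.621 and 0.891 in mTEClo and 12.3, 12.4 and 14.9 in mTEChi. Outside mTEChi no library passed 1.14 RPKM. It was 13.5-fold higher in WT mTEChi than in WT mTEClo, at 3.75 (SE 0.15, adjusted p = 3.66e-12) on the log2 scale, and WT cTEC was lower than WT mTEChi, at -4.37 (SE 0.16, adjusted p = 1.34e-07).

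Col6a4 (chr9:105990318-106096691) was instead a chain of both medullary populations. It read 0.852 and 0.856 RPKM in WT cTEC, 9.53, 8.73 and 7.97 in WT mTEClo and 7.296, 7.199 and 7.32 in WT mTEChi. With Psmb11 absent it read 1.93 and 1.24 in cTEC, 10.9, 9.23 and 10.7 in mTEClo and 8.17, 8.08 and 8.01 in mTEChi. The cTEC libraries lay below every medullary library. WT cTEC was 9.79-fold below WT mTEClo (-3.29 (SE 0.22, adjusted p = 6.3e-06)) and lower than WT mTEChi (-2.91 (SE 0.21, adjusted p = 4.87e-06)), and WT mTEChi was 1.35-fold below WT mTEClo (-0.43 (SE 0.08, adjusted p = 8.47e-05)). Of its exon bases 3.39% overlap genes on the other strand, whose reads cannot be told apart here because the kit does not mark strand.

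Col6a3, which encodes the usual partner chain of type VI in connective tissue, was described after its values were seen. It read 1.19 and 0.365 RPKM in WT cTEC, 0.0973, 0.113 and 0.179 in WT mTEClo and 3.38, 2.91 and 3.13 in WT mTEChi. KO values were 0.711 and 2.18 in cTEC, 0.105, 0.149 and 0.263 in mTEClo and 3.33, 3.12 and 3.52 in mTEChi. It was thus lowest where Col6a1 and Col6a2 were highest, with a log2 difference of 4.41 (SE 0.27, adjusted p = 6.14e-10) for WT mTEChi against WT mTEClo. In WT mTEClo, Col6a1 stood at 2889 ± 923 times the RPKM of Col6a3 (mean ± SD, n = 3), against 7.82 ± 0.600 times in WT mTEChi. In WT cTEC the ratios of its libraries were 122 and 384. The last gene of the class, Col6a6, stayed at or under 0.543 RPKM in every library.

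**Figure D3:**
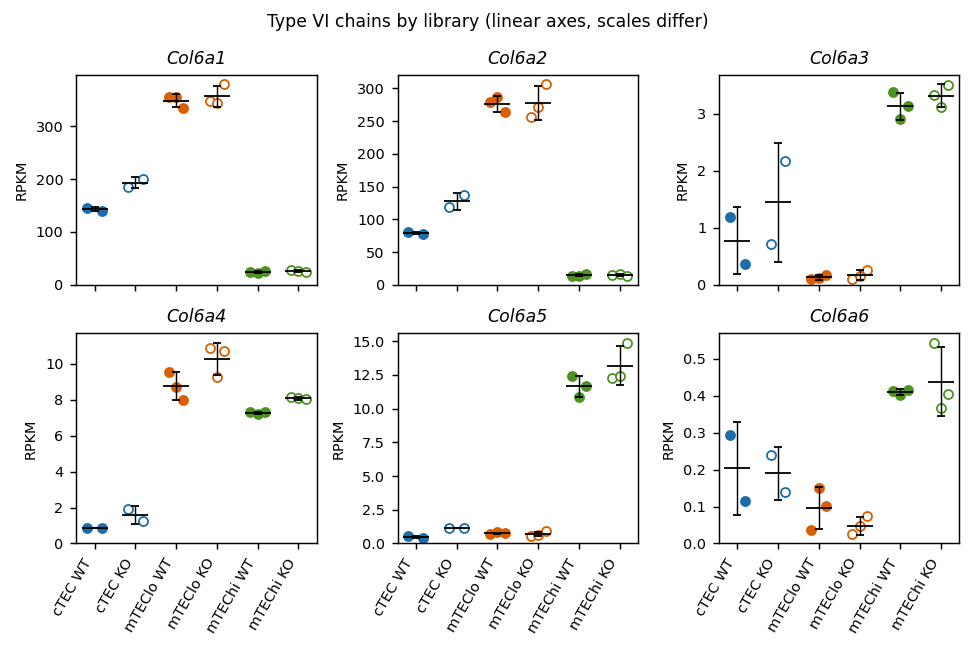
RPKM of the 6 type VI chain genes by library (1 panel each, linear axes of different range); filled points are WT, open points KO, bars the mean with 1 SD either side. Col6a1 and Col6a2 are highest in mTEClo and lowest in mTEChi, while Col6a3 and Col6a5 are highest in mTEChi and Col6a4 is high in both medullary populations.

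Type IV collagen came next by summed RPKM in cTEC and mTEClo. In WT mTEChi it summed to 55.5 to 59.5, below the fibrillar and fibril-associated classes. Its common network is built from the chains of Col4a1 and Col4a2. Col4a1 (chr8:11198423-11312826, minus strand) read 87.9 and 83.7 RPKM in WT cTEC, 127, 127 and 111 in WT mTEClo and 35.04, 36.5 and 38.3 in WT mTEChi. KO libraries read 89.2 and 94.02 in cTEC, 134, 140.2 and 139.6 in mTEClo and 42.8, 42.02 and 38.7 in mTEChi. As for Col6a1, mTEClo was highest and mTEChi lowest, with no overlap. The log2 fold changes were -1.900 (SE 0.07, adjusted p = 1.82e-12) for WT mTEChi against WT mTEClo, -0.43 (SE 0.09, adjusted p = 0.00422) for WT cTEC against WT mTEClo and 1.42 (SE 0.07, adjusted p = 5.72e-07) for WT cTEC against WT mTEChi.

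Col4a2 (chr8:11312829-11449287, plus strand) read 61.1 and 57.2 RPKM in WT cTEC, 76.7, 75.3 and 65.1 in WT mTEClo and 16.9, 17.1 and 17.6 in WT mTEChi. Its KO values were 56.5 and 69.8 in cTEC, 75.6, 79.8 and 80.6 in mTEClo and 19.3, 19.1 and 18.6 in mTEChi. The mTEChi values lay below all others, while a KO cTEC value lay among those of mTEClo. WT cTEC was 3.89-fold above WT mTEChi (1.96 (SE 0.07, adjusted p = 1.37e-07)) and WT mTEClo 4.71-fold (-2.24 (SE 0.07, adjusted p = 2.99e-13) for mTEChi). The difference between WT cTEC and WT mTEClo, -0.23 (SE 0.10, adjusted p = 0.119), missed the threshold. Col4a1 stood at 1.45 ± 0.0181 times Col4a2 in WT cTEC (mean ± SD, n = 2), 1.68 ± 0.0270 times in WT mTEClo and 2.13 ± 0.0512 times in WT mTEChi (n = 3 each).

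These genes lie head to head, transcribed away from a shared stretch, with only 2 bases between their spans in the authors' coordinates. The RefSeq promoter of Col4a2 therefore also holds the start of Col4a1, and it is shown because the pair moved together. Capitals mark 1 CCAAT box and 3 GC boxes, on either strand.
Col4a2 (chr8:11312555-11312854, plus strand): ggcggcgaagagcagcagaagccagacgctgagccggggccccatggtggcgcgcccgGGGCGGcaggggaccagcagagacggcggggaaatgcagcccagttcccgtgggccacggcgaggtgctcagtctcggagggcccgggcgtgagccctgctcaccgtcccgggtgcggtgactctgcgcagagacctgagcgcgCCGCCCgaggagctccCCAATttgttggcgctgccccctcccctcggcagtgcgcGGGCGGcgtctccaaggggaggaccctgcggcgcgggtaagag
Exons annotated for the pair overlap by 22 bases, which is 0.295% of the exon bases of Col4a1.

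Col4a3 and Col4a4, chains of the specialised type IV network known from kidney, were also head to head, with 71 bases between them, but did not move together. They were singled out after their values were seen, for that arrangement. Col4a4 (chr1:82450723-82586849, minus strand) read 0.984 and 0.874 RPKM in WT cTEC, 1.41, 1.403 and 1.73 in WT mTEClo and 0.511, 0.405 and 0.392 in WT mTEChi. Col4a3 (chr1:82586921-82722059, plus strand) read 0.287 and 0.330 in WT cTEC, 0.0259, 0.0122 and 0.0239 in WT mTEClo and 0.678, 0.557 and 0.450 in WT mTEChi. From WT mTEClo to WT mTEChi the first was lower and the second higher, with no overlap for either gene. Their log2 fold changes for WT mTEChi against WT mTEClo were -1.93 (SE 0.19, adjusted p = 1.9e-07) and 4.98 (SE 0.32, adjusted p = 1.39e-09). In KO libraries Col4a4 read 1.53, 1.22 and 0.933 in mTEClo and 0.558, 0.405 and 0.376 in mTEChi, and Col4a3 read 0.0196, 0.0243 and 0.0238 and 0.636, 0.438 and 0.471. Both are low genes, and 5.65% of the exon bases of Col4a3 overlap a gene on the other strand.

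The window before Col4a4 is shown because it contains the Col4a3 start, which the authors' coordinates place at base 82586921. It held no CCAAT box, GC box or TATA box on either strand, so none of its letters is in capitals.
Col4a4 (chr1:82586800-82587099, minus strand): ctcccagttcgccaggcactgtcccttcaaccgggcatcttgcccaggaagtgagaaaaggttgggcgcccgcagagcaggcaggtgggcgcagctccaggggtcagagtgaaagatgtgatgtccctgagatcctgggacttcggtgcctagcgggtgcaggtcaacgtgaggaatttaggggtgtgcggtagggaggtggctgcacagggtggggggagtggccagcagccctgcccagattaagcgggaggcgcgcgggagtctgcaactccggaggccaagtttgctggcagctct

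Col4a5 and Col4a6 encode further type IV chains and lie head to head on chromosome X, with 1342 bases between them. Col4a5 (chrX:141475419-141689235) read 16.1 and 14.4 RPKM in WT cTEC, 2.93, 3.01 and 2.99 in WT mTEClo and 1.899, 2.42 and 2.47 in WT mTEChi. KO libraries read 8.65 and 7.45 in cTEC, 3.34, 4.52 and 3.33 in mTEClo and 1.88, 2.48 and 2.74 in mTEChi. The cTEC values were above all medullary ones in both genotypes. WT cTEC was 5.35-fold above WT mTEClo (2.42 (SE 0.14, adjusted p = 3.61e-06)) and 7.61-fold above WT mTEChi (2.93 (SE 0.20, adjusted p = 3.62e-06)). Col4a6, described after its values were seen, was also highest in cTEC, at 3.68 and 2.69 RPKM in WT and 1.66 and 4.71 in KO, against 0.229 to 0.845 in the medullary libraries.

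**Figure D4:**
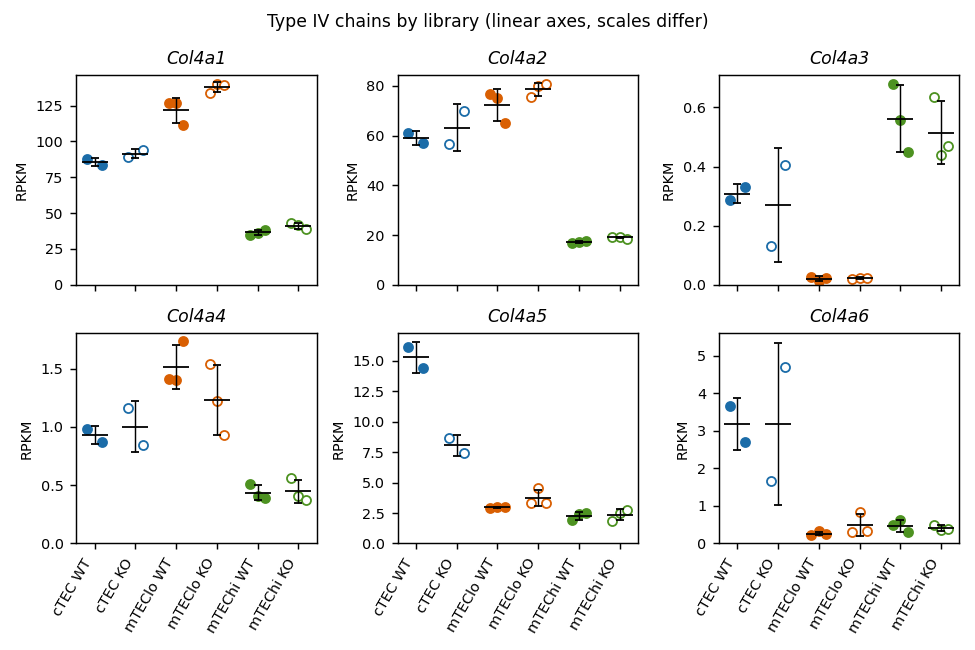
RPKM of the 6 type IV chain genes by library (1 panel each, linear axes of different range); filled points are WT, open points KO, bars the mean with 1 SD either side. Col4a1 and Col4a2 are lowest in mTEChi, Col4a3 and Col4a4 run in opposite directions between mTEClo and mTEChi, and Col4a5 is highest in WT cTEC, and Col4a6 is higher in all 4 cTEC libraries than in the medullary ones.

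Col18a1, Col7a1 and Col8a2 were highest in cTEC. Col18a1 encodes a proteoglycan of basement membranes, from which endostatin is cut. At chr10:77052179-77166530 it read 85.03 and 77.4 RPKM in WT cTEC, 45.3, 48.01 and 42.7 in WT mTEClo and 10.2, 9.63 and 10.3 in WT mTEChi. KO libraries read 58.2 and 71.1 in cTEC, 43.2, 48.4 and 49.1 in mTEClo and 10.9, 10.5 and 9.92 in mTEChi. Values fell into 3 separate ranges, from cTEC down to mTEChi. WT cTEC was 1.88-fold above WT mTEClo (0.91 (SE 0.10, adjusted p = 8.88e-05)) and 9.19-fold above WT mTEChi (3.200 (SE 0.08, adjusted p = 2.67e-08)), and WT mTEChi against WT mTEClo gave -2.34 (SE 0.07, adjusted p = 1.86e-13).

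Col15a1, of the same class as Col18a1 and described after its values were seen, read 5.599 and 5.45 RPKM in WT cTEC, 2.98, 3.22 and 2.05 in WT mTEClo and 7.11, 7.04 and 6.97 in WT mTEChi. It was lowest in WT mTEClo by the test, and WT cTEC against WT mTEChi was not called.

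Col7a1 encodes the anchoring fibril that ties basement membranes to the tissue below. At chr9:108953745-108984875 it read 11.2 and 11.01 RPKM in WT cTEC, 3.05, 2.41 and 2.19 in WT mTEClo and 2.22, 2.68 and 3.26 in WT mTEChi. KO values were 6.18 and 11.05 in cTEC, 2.04, 2.29 and 2.45 in mTEClo and 2.63, 2.56 and 2.67 in mTEChi. The cTEC values were the highest in either genotype, and the medullary populations overlapped. WT cTEC was 4.56-fold above WT mTEClo (2.19 (SE 0.20, adjusted p = 3.36e-05)) and 4.63-fold above WT mTEChi (2.21 (SE 0.21, adjusted p = 2.75e-05)).

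Col8a2, a chain of the hexagonal networks known from the cornea, at chr4:126286794-126314330, read 6.94 and 6.99 RPKM in WT cTEC, 0.444, 0.649 and 0.757 in WT mTEClo and 0.642, 0.647 and 0.532 in WT mTEChi. With Psmb11 absent it read 3.63 and 3.57 in cTEC, 0.511, 0.774 and 0.529 in mTEClo and 1.08, 0.561 and 0.634 in mTEChi. No medullary library passed 1.08 RPKM. WT cTEC was 11.8-fold above WT mTEClo (3.56 (SE 0.25, adjusted p = 7.7e-06)) and 13.1-fold above WT mTEChi (3.71 (SE 0.27, adjusted p = 5.89e-06)). Its partner chain gene Col8a1 was highest in WT mTEClo, at 3.03, 3.11 and 3.46 RPKM, against 1.06 to 1.8004 in the other WT libraries.

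Col17a1 encodes a transmembrane collagen of hemidesmosomes, which fix basal epithelial cells to the basement membrane. At chr19:47646341-47692042 it read 15.2 and 11.9 RPKM in WT cTEC, 10.6, 12.2 and 8.96 in WT mTEClo and 21.7, 21.5 and 22.97 in WT mTEChi. KO libraries read 10.8 and 27.95 in cTEC, 11.5, 11.03 and 10.9 in mTEClo and 20.5, 23.1 and 23.9 in mTEChi. The KO cTEC libraries lay on either side of all other cTEC values. WT mTEChi was 1.86-fold above WT mTEClo (0.89 (SE 0.10, adjusted p = 5.46e-07)), and WT cTEC passed the threshold against neither. All 4 transmembrane collagen genes, which include Col13a1, Col23a1 and Col25a1, were higher in WT mTEChi than in WT mTEClo. Of all genes, 42.8% were called higher in that comparison.

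Among fibrillar collagens, only Col3a1 was above both other populations in WT cTEC by the test. It encodes type III, the collagen of soft reticular fibres. At chr1:45311538-45349706 it read 26.01 and 19.2 RPKM in WT cTEC, 9.37, 11.3 and 10.9 in WT mTEClo and 3.59, 4.16 and 4.07 in WT mTEChi. KO values were 36.04 and 46.2 in cTEC, 9.99, 18.5 and 12.03 in mTEClo and 4.48, 2.81 and 3.55 in mTEChi. WT cTEC was 2.25-fold above WT mTEClo (1.17 (SE 0.24, adjusted p = 0.0044)) and 6.51-fold above WT mTEChi (2.702 (SE 0.20, adjusted p = 5.64e-06)). Without cTEC WT 1 the first value was 0.88 and was no longer called (adjusted p = 0.0621).

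The type V chains, which help to set fibril diameter, differed in how far the populations lay apart. Col5a1, described after its values were seen, read 6.25 and 6.38 RPKM in WT cTEC and 9.69 to 10.004 in the WT medullary libraries, against 9.34 and 9.797 in KO cTEC. WT cTEC was lower than WT mTEClo, at -0.58 (SE 0.10, adjusted p = 0.00163), and than WT mTEChi, at -0.47 (SE 0.05, adjusted p = 6.42e-05). Col5a2 (chr1:45374331-45503282) read 18.6 and 14.2 RPKM in WT cTEC, 21.1, 21.7 and 20.2 in WT mTEClo and 15.97, 15.4 and 15.8 in WT mTEChi. Its KO values were 15.4 and 21.5 in cTEC, 19.7, 30.2 and 23.9 in mTEClo and 15.7, 15.995 and 15.9 in mTEChi. Its call between WT populations was for mTEChi against mTEClo, at -0.602 (SE 0.11, adjusted p = 0.000116). Col5a3 (chr9:20770050-20815034) read 1.79 and 1.18 RPKM in WT cTEC, 1.11, 1.20003 and 1.13 in WT mTEClo and 12.9, 11.4 and 12.6 in WT mTEChi. In KO libraries it read 3.65 and 3.15 in cTEC, 1.08, 1.15 and 1.29 in mTEClo and 13.4, 12.03 and 12.8 in mTEChi. Every mTEChi library was above every other library. WT mTEChi was 9.47-fold above WT mTEClo (3.24 (SE 0.09, adjusted p = 9.6e-14)) and 7.27-fold above WT cTEC (-2.86 (SE 0.20, adjusted p = 4.28e-06) for cTEC).

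Type I collagen, the main fibre of connective tissue, joins the chains of Col1a1 and Col1a2. Col1a2 (chr6:4505697-4541543) read 4.54 and 3.27 RPKM in WT cTEC, 0.478, 0.666 and 0.733 in WT mTEClo and 2.67, 2.78 and 2.78 in WT mTEChi. KO libraries read 2.801 and 8.72 in cTEC, 0.666, 1.11 and 0.875 in mTEClo and 2.16, 2.25 and 2.53 in mTEChi. WT mTEClo was lowest, with log2 fold changes of 2.695 (SE 0.41, adjusted p = 0.000833) for WT cTEC and 1.95 (SE 0.18, adjusted p = 9.43e-08) for WT mTEChi against it. Col1a1, described after its values were seen, read 3.41 and 2.12 RPKM in WT cTEC, 1.07, 1.18 and 0.961 in WT mTEClo and 13.2, 13.7 and 16.9 in WT mTEChi, with 7.603 and 6.92, 1.16, 1.77 and 1.62 and 16.1, 14.9 and 14.2 in KO libraries of the same order. It was highest in mTEChi, at 3.63 (SE 0.15, adjusted p = 6.17e-12) against WT mTEClo. The ratio of Col1a1 to Col1a2 was 0.700 ± 0.0705 in WT cTEC (mean ± SD, n = 2), 1.77 ± 0.458 in WT mTEClo and 5.32 ± 0.674 in WT mTEChi (n = 3 each). The WT ranges of that ratio did not overlap between populations.

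Fibril-associated collagens, which sit on the surface of fibrils, included genes above both other populations in WT cTEC (Col12a1), WT mTEClo (Col16a1) and WT mTEChi (Col14a1). Col12a1 (chr9:79598991-79718678) read 47.5 and 42.2 RPKM in WT cTEC, 23.2, 26.3 and 24.6 in WT mTEClo and 13.4, 13.1 and 13.2 in WT mTEChi. Its KO values were 30.2 and 42.9 in cTEC, 22.03, 29.4 and 25.6 in mTEClo and 12.6, 12.8 and 14.3 in mTEChi. The mTEChi libraries were lowest throughout, and WT cTEC was above WT mTEClo (0.93 (SE 0.14, adjusted p = 0.000911)) and WT mTEChi (1.94 (SE 0.13, adjusted p = 3.03e-06)).

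Col16a1 (chr4:130047840-130099277) was highest in mTEClo, where it still lay below Col12a1 in mean RPKM. It read 11.3 and 9.91 RPKM in WT cTEC, 22.98, 21.4 and 21.9 in WT mTEClo and 14.1, 12.5 and 14.2 in WT mTEChi. KO libraries read 14.7 and 10.5 in cTEC, 17.2, 18.9 and 18.1 in mTEClo and 14.4, 13.8 and 13.5 in mTEChi. WT mTEClo was 1.997-fold above WT cTEC (-0.998 (SE 0.15, adjusted p = 0.000873) for cTEC) and 1.84-fold above WT mTEChi (-0.88 (SE 0.07, adjusted p = 6.48e-09) for mTEChi).

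Col14a1 (chr15:55307750-55520803) was highest in mTEChi. It read 10.1 and 6.61 RPKM in WT cTEC, 3.28, 5.08 and 4.05 in WT mTEClo and 17.7, 17.5 and 16.8 in WT mTEChi. The KO values were 7.401 and 8.24 in cTEC, 4.39, 5.18 and 4.68 in mTEClo and 19.2, 17.9 and 18.3 in mTEChi. Every mTEChi library was above every cTEC library, and these above every mTEClo library. WT mTEChi was 3.72-fold above WT mTEClo (1.89 (SE 0.11, adjusted p = 5.77e-10)) and 1.82-fold above WT cTEC (-0.86 (SE 0.16, adjusted p = 0.00145) for cTEC).

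Col19a1 (chr1:24257683-24587437) hardly differed between WT populations, while KO mTEClo values lay below those of WT mTEClo without passing the threshold. It read 2.93 and 2.65 RPKM in WT cTEC, 2.73, 2.898 and 3.11 in WT mTEClo and 2.73, 2.92 and 2.49 in WT mTEChi. KO libraries read 2.91 and 2.67 in cTEC, 2.31, 2.18 and 2.44 in mTEClo and 2.41, 2.28 and 2.56 in mTEChi. The call between WT populations was for mTEChi against mTEClo, at -0.26 (SE 0.09, adjusted p = 0.0129), and the ranges of their RPKM overlapped. That call was lost without mTEClo WT 3 (−0.21, adjusted p = 0.0645), without mTEChi WT 3 (−0.21, adjusted p = 0.0596), under RLE scaling (−0.18, adjusted p = 0.0712) and in DESeq2 (−0.18, adjusted p = 0.0768).

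Chains known from cartilage included genes highest in WT mTEChi and genes highest in WT mTEClo. Col10a1, a marker of hypertrophic cartilage cells, lies at chr10:34389981-34397085 on the plus strand. It read 0.00519 and 0.0804 RPKM in WT cTEC, 0.0416, 0.0142 and 0.0622 in WT mTEClo and 9.58, 8.304 and 9.09 in WT mTEChi. KO libraries read 0.537 and 0.121 in cTEC, 0.0315, 0.0446 and 0.0830 in mTEClo and 10.5, 9.28 and 9.41 in mTEChi. Outside mTEChi no library passed 0.537 RPKM. Counts were 2431 to 4492 in WT mTEChi and 5 to 24 in WT mTEClo, a 219-fold difference (7.78 (SE 0.27, adjusted p = 9.32e-13)). In the WT cTEC libraries counts were 2 and 17. The gene lies within the span of Nt5dc1, whose exons overlap 18 of its exon bases, and Nt5dc1 stood at 20.3 to 34.8 CPM in all libraries.

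The Col10a1 promoter is shown because of the wide gap between mTEChi and the other populations. The capitals mark the TATA box, TATAAA, 32 bases before the start.
Col10a1 (chr10:34389731-34390030, plus strand): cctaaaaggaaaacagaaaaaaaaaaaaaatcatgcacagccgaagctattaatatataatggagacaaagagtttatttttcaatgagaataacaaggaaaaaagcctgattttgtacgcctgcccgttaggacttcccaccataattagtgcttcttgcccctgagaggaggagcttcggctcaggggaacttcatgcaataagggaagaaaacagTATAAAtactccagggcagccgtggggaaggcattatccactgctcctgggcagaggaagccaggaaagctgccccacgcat

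Other cartilage chains were not all alike. Col9a1 was at 3.37 to 4.39 RPKM in WT mTEChi and at most 0.406 in the other WT libraries, with a log2 difference of 3.499 (SE 0.22, adjusted p = 9.83e-10) against WT mTEClo. Col11a1 was at 0.498 to 0.641 RPKM in WT mTEChi and at most 0.0454 in the other WT libraries. Col2a1, the main fibrillar chain of cartilage, was highest in WT mTEClo, at 9.07, 11.7 and 9.51 RPKM against 5.205, 4.22 and 5.61 in WT mTEChi and 0.969 and 0.643 in WT cTEC. Col9a2 was at 4.91 to 6.49 RPKM in WT mTEClo and 6.76 to 8.40 in WT mTEChi, against 0.669 and 0.701 in WT cTEC. Col9a3 and Col11a2, with ranges given below, were like Col2a1 lower in WT mTEChi than in WT mTEClo by the test. These genes were named after their values were seen. Of 6 cartilage and notochord markers that are not collagens, 5 were higher in WT mTEChi than in WT mTEClo (Acan, Comp, Hapln1, Matn1 and T) and Sox9 was lower, against 79.6% of all genes called in either direction. In WT cTEC, Acan, Comp, Hapln1, Matn1 and T were each at or below 0.678 CPM. The part of such cells in these values was not tested.

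The remaining members were read by range. Col20a1 stood at 1.77 to 4.46 RPKM in WT libraries and Col11a2 at 1.76 to 3.15. Col27a1 stood at 5.82 to 6.28 RPKM in WT cTEC, 13.3 to 15.1 in WT mTEClo and 14.2 to 16.2 in WT mTEChi. It was lower in WT cTEC than in either medullary population by the test. Col22a1 ranged from 0 in cTEC WT 2 to 4.20 RPKM in mTEChi WT 3. Col24a1, Col25a1 and Col28a1 stayed at or under 0.768 RPKM in every library, and Col26a1 reached 1.45. Col9a3 was highest in WT mTEClo, at 2.498 to 2.98 RPKM, and 6.07% of its exon bases overlap a gene on the other strand. Every WT difference called between populations was also looked for in the KO libraries. For cTEC against mTEClo, 25 of 27 genes had KO libraries that did not overlap in CPM, in the same direction, against 66.2% of all genes so called. For cTEC against mTEChi this held for 27 of 30 (88.5% of all genes), and for mTEChi against mTEClo for 37 of 39 (93.8%).

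Genes that act on collagen were counted in lists of their own. Of 20 genes of collagen folding and modification in the endoplasmic reticulum, 14 were higher and 1 lower in WT cTEC than in WT mTEChi, and 2 were higher and 17 lower in WT mTEChi than in WT mTEClo. Between WT cTEC and WT mTEClo, 4 were higher and 4 lower. The shares of all genes were 28% and 36.5%, 42.8% and 36.8%, and 13.1% and 14.4% in that order. The medians of this list were 0.99, −0.55 and 0.01 on the log2 scale, beside −0.24, 0.08 and −0.01 for all genes. P4ha3, a subunit of prolyl hydroxylase, was at 125 and 103 CPM in WT cTEC, 17.6, 20.2 and 18.9 in WT mTEClo and 6.57, 6.84 and 7.03 in WT mTEChi. Fkbp10, a chaperone of procollagen, was at 60.8 and 60.9 CPM in WT cTEC and 57.4, 64.4 and 59.3 in WT mTEClo against 4.79, 5.05 and 5.91 in WT mTEChi. The drop to WT mTEChi from WT mTEClo was -3.55 (SE 0.09, adjusted p = 6.31e-14) on the log2 scale for Fkbp10 and -2.61 (SE 0.07, adjusted p = 1.09e-13) for Plod2, a lysyl hydroxylase. For WT cTEC against WT mTEClo, P4ha3 gave 2.59 (SE 0.11, adjusted p = 8.37e-07) and Glt25d2, a collagen galactosyltransferase gene, 2.57 (SE 0.37, adjusted p = 0.0006).

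Of 14 genes of propeptide trimming and crosslinking, 4 were higher and 4 lower in WT cTEC than in WT mTEClo, 5 and 6 in WT cTEC than in WT mTEChi, and 5 and 6 in WT mTEChi than in WT mTEClo. Of all genes, 27.5%, 64.6% and 79.6% were called in these comparisons. Lox, lysyl oxidase, was at 208 and 192 CPM in WT cTEC, 187, 207 and 208 in WT mTEClo and 12.6, 10.4 and 11.9 in WT mTEChi, or -4.13 (SE 0.11, adjusted p = 5.11e-14) for WT mTEChi against WT mTEClo. Loxl4, of the same family, ran the other way, at 32.6 and 23.9, 3.88, 3.64 and 2.33 and 52.999, 47.6 and 48.5 CPM in that order, or 3.89 (SE 0.15, adjusted p = 2.24e-12). Sparc, a collagen-binding matrix protein gene, gave 2.77 (SE 0.14, adjusted p = 5.47e-07) for WT cTEC against WT mTEChi, and Pcolce, an enhancer of propeptide cleavage, 0.94 (SE 0.16, adjusted p = 0.00179) for WT cTEC against WT mTEClo.

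Of the collagen turnover genes, 2 of 12 tested were higher and 3 lower in WT cTEC than in WT mTEClo, 4 of 14 higher and 8 lower in WT cTEC than in WT mTEChi, and 9 of 14 higher and 5 lower in WT mTEChi than in WT mTEClo. Mmp2, a gelatinase, was at 131 and 133 CPM in WT cTEC, 104, 107 and 106 in WT mTEClo and 10.3, 8.696 and 8.11 in WT mTEChi, with -3.57 (SE 0.09, adjusted p = 3.7e-14) for WT mTEChi against WT mTEClo. The metalloprotease inhibitor gene Timp1 was lower in WT cTEC than in WT mTEClo (-1.67 (SE 0.17, adjusted p = 7.35e-05)), and Timp2 higher (1.02 (SE 0.18, adjusted p = 0.0018)). Of the collagen receptors, 5 of 9 tested were higher and none lower in WT cTEC than in WT mTEClo, 5 of 10 higher and 4 lower in WT cTEC than in WT mTEChi, and 4 of 10 higher and 5 lower in WT mTEChi than in WT mTEClo. The share of all genes called was again 27.5%, 64.6% and 79.6% in this order, for turnover genes and receptors alike. The receptor kinase gene Ddr1 was at 722 and 692 CPM in WT cTEC, 497, 520.4 and 461 in WT mTEClo and 95.6, 102 and 113 in WT mTEChi (2.75 (SE 0.09, adjusted p = 6.42e-08) for WT cTEC against WT mTEChi), and Ddr2 gave 1.51 (SE 0.24, adjusted p = 0.00119) for WT cTEC against WT mTEClo.

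Fibroblasts and pericytes also express collagens, so their markers were read in the same libraries. Summed over 12 such markers, none of them a collagen, CPM was 1092 to 1356 in WT cTEC, 1335 to 1550.3 in WT mTEClo and 585 to 604 in WT mTEChi. Dcn, decorin, was at 915 and 801 CPM in WT cTEC, 155, 190.2 and 209 in WT mTEClo and 44.5, 49.4 and 42.2 in WT mTEChi. Between WT mTEChi and WT mTEClo 4 of the 12 were higher and 6 lower, between WT cTEC and WT mTEClo 4 higher and 3 lower, and between WT cTEC and WT mTEChi 6 higher and 5 lower, beside 79.6%, 27.5% and 64.6% of all genes called. The 4 that were higher in WT mTEChi than in WT mTEClo were Pdgfrb, Thy1, Cspg4 and Mfap5. Pdgfrb was at 7.303 and 1.87 CPM in WT cTEC, 6.51, 5.56 and 5.18 in WT mTEClo and 62.1, 63.3 and 62.998 in WT mTEChi. Thy1 was at 9.496, 5.42 and 4.38 CPM in WT mTEClo and 61.5, 47.5 and 48.03 in WT mTEChi, and the log2 differences of Cspg4 and Mfap5 were 2.87 (SE 0.16, adjusted p = 2e-10) and 6.92 (SE 0.77, adjusted p = 7.49e-07). Markers of dendritic cells and macrophages were also higher there, all 6 of them, with sums of 28.7 to 59.2 CPM in WT cTEC, 45.3 to 49.5 in WT mTEClo and 481 to 507 in WT mTEChi. B cell markers summed to 2.13 to 4.27 CPM in WT cTEC, 12.1 to 15.5 in WT mTEClo and 29.8 to 30.8 in WT mTEChi. Mfap5 was the marker at 0, in cTEC WT 2. The 8 thymocyte markers, which do not include Thy1, summed to 68.2 to 94.6 CPM in WT cTEC, 34.5 to 61.9 in WT mTEClo and 69.4 to 116 in WT mTEChi. Fewer cells of a type and less RNA per cell cannot be told apart in such libraries, and the part of all these cells was not tested.

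Loss of Psmb11 was then compared with WT in each population. In cTEC no collagen gene of 43 tested was called by edgeR, against 0% of all 16423 genes. The deleted gene Psmb11 was not called there either, at -7.19 (SE 1.15, adjusted p = 0.0855) on the log2 scale. The absence of calls in cTEC therefore does not show that collagen genes were unchanged. Without adjustment, 12 collagen genes and 2104 of all genes had p under 0.05. Of the 43 genes, 32 had a log2 fold change above 0 and 11 below, with a median of 0.35 beside 0.01 for all genes. The 10 fibrillar genes tested and the 6 type VI genes were all above 0, with medians of 0.67 and 0.79, and Col11a1 was not tested for low counts. Groups did not overlap in CPM for 20 of 43, with 16 higher and 4 lower in KO, against 20.8% of all genes higher and 24.9% lower.

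The smallest p-values belonged to Col6a2 and Col4a5. Col6a2, at 80.3 and 77.6 RPKM in WT and 118 and 137 in KO cTEC, gave 0.69 (SE 0.12, adjusted p = 0.0986) on the log2 scale. Col4a5, at 16.1 and 14.4 in WT and 8.65 and 7.45 in KO, had -0.88 (SE 0.17, adjusted p = 0.117). Neither gene's groups overlapped, and neither passed the threshold. The other 10 with an unadjusted p under 0.05, named after their values were seen, were Col1a1, Col3a1, Col5a1, Col5a3, Col6a1, Col6a4, Col6a5 and Col27a1 with values above 0 and Col8a2 and Col18a1 with values below 0. Their log2 fold changes ran from −0.94 for Col8a2 to 1.42 for Col1a1.

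The calls in cTEC differed between methods. DESeq2 called 8 genes, namely Col1a1, Col3a1, Col5a1, Col5a3, Col6a1 and Col6a2 higher and Col4a5 and Col8a2 lower. Leaving out a cTEC library leaves 1 in its group, which is then assumed to vary like the 2 of the other genotype. Such fits also called collagen genes, and their counts are not set beside the main fit. Calls among all genes ranged from 0 to 4700 over the settings run, against 0 in the main fit. Markers of other cells were read alongside. All 10 medullary markers were above 0, their sum going from 3839 to 4232 CPM in WT to 4433 to 4752 in KO, and all 4 tuft cell markers, from 347 to 399 CPM to 709 to 1016. All 8 cortical markers were below 0, from 3338 to 3808 CPM to 1678 to 2592. The 8 include the deleted gene Psmb11, whose own fall, from 174 and 146 CPM to 2.102 and 0, was set by the design. Of the fibroblast and pericyte markers 10 of 12 were above 0, though their sums overlapped, at 1013 to 1500.2 CPM in KO. The 4 B cell markers were all above 0, from 2.13 to 4.27 CPM to 11.8 to 13.2, and 5 of 6 dendritic cell and macrophage markers, from 28.7 to 59.2 CPM to 69.9 to 97.1. Of the 4 epithelial markers 2 were above 0 and 2 below, with sums of 4204 to 4245 CPM in WT and 4007 to 4046 in KO. Of the endothelial markers, Cdh5, Esam, Kdr, Pecam1 and Tie1 were below 0 and Flt1 and Tek above. Their sums overlapped, at 24.2 to 97.4 CPM in WT and 38.8 to 60.04 in KO. Thymocyte markers were above 0 except Cd8a, with overlapping sums of 68.2 to 94.6 CPM in WT and 82.01 to 129 in KO. None of these passed the threshold, and their part in the collagen values was not tested.

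**Figure D5:**
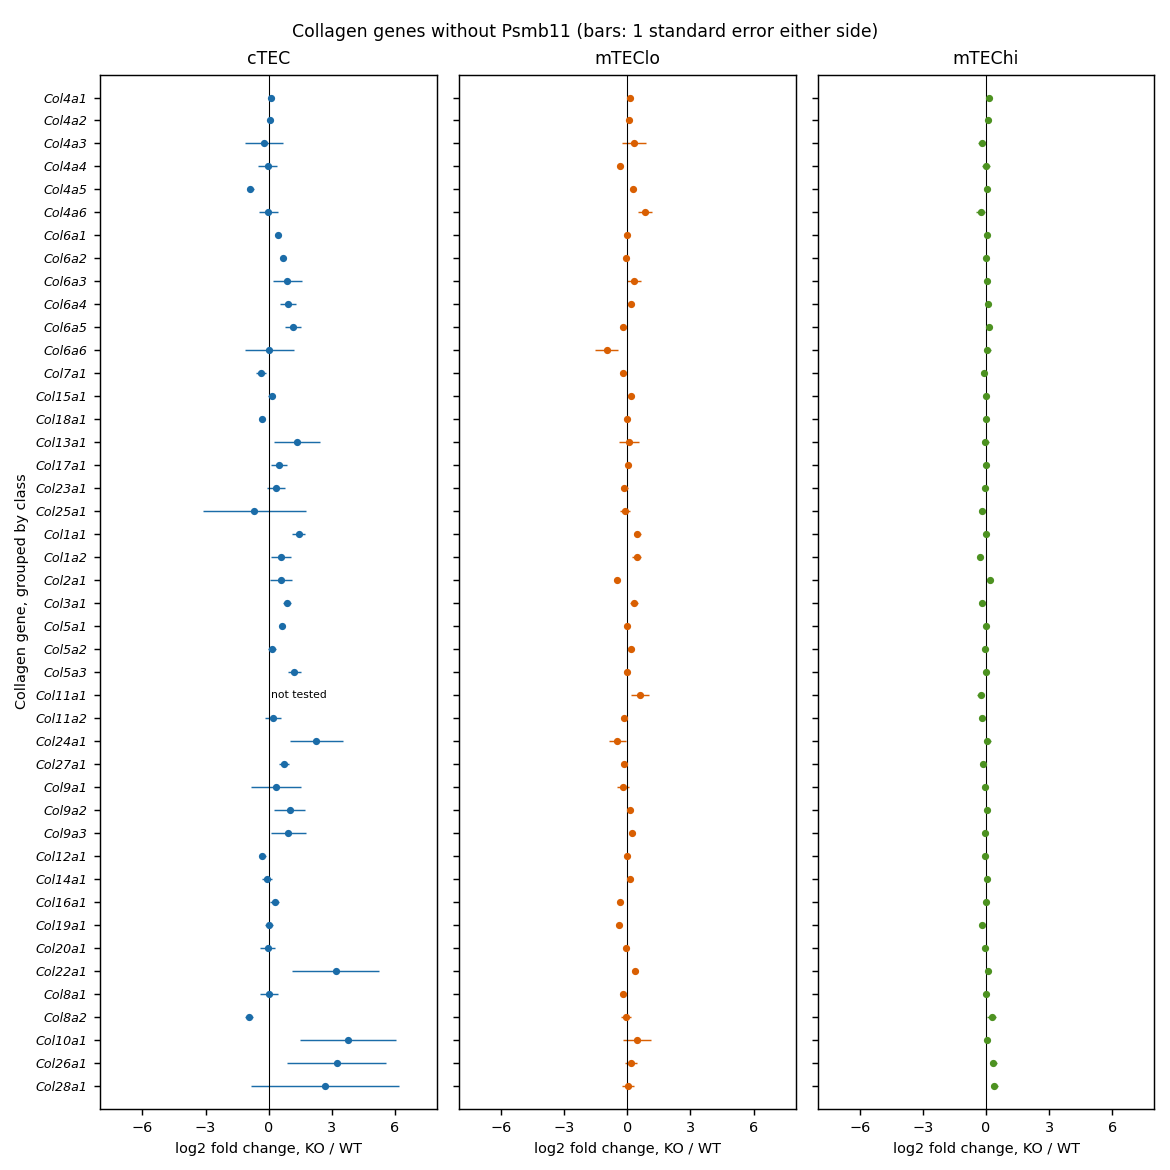
Log2 fold change of each collagen gene in KO against WT, 1 panel per population, with 1 standard error either side; Col11a1 was not tested in cTEC. No gene passed an adjusted p of 0.05 in any panel, 32 of 43 points lie above 0 in cTEC, and mTEClo and mTEChi points lie close to 0 with shorter bars.

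In mTEClo no collagen gene was called of 44, against 0.00586% of all genes, which is Psmb11 alone. Without adjustment 7 collagen genes and 2141 of all genes had p under 0.05, and 23 collagen genes lay above 0 and 21 below. The smallest p-values were those of Col16a1, at 22.98, 21.4 and 21.9 RPKM in WT and 17.2, 18.9 and 18.1 in KO (-0.35 (SE 0.07, adjusted p = 0.18)), and Col19a1, at 2.73, 2.898 and 3.11 in WT and 2.31, 2.18 and 2.44 in KO (-0.39 (SE 0.08, adjusted p = 0.18)). KO values were below WT values for both genes without overlap, which held for 2 of the 44 in that direction and 2 in the other, against 19.2% of all genes. DESeq2 called 3 lower, Col16a1, Col19a1 and Col2a1. Calls among all genes in this comparison ranged from 0 to 318 over the settings run.

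In mTEChi no collagen gene was called of 44, against 0.0051% of all genes, again Psmb11 alone, and DESeq2 called none. Without adjustment 3 collagen genes and 822 of all genes had p under 0.05, and 22 were above 0 and 22 below. The smallest p-values were those of Col1a2, at 2.67, 2.78 and 2.78 RPKM in WT and 2.16, 2.25 and 2.53 in KO (-0.27 (SE 0.10, adjusted p = 0.999)), and Col19a1, at 2.73, 2.92 and 2.49 in WT and 2.41, 2.28 and 2.56 in KO (-0.21 (SE 0.09, adjusted p = 0.999)). Groups did not overlap in CPM for 5 of 44, against 8.99% of all genes. In the 3 KO comparisons no gene of collagen folding, trimming, turnover or reception passed the threshold.

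The KO effects were also compared between populations directly, as differences of log2 fold changes. The effect in cTEC differed from that in mTEClo for 4 collagen genes of 44, against 4.68% of all genes, with Col5a1, Col5a3 and Col6a2 more positive in cTEC and Col4a5 more negative. It differed from that in mTEChi for 5 of 44, against 5.35% of all genes, with Col1a1, Col5a1, Col5a3, Col6a2 and Col6a5 more positive in cTEC. Between mTEChi and mTEClo, 5 collagen genes and 1029 of all 19816 genes had an unadjusted p under 0.05. There edgeR called none of 44, against 0.0101% of all genes, and DESeq2 called 0. The first and second of these share the cTEC libraries, and a fit with a variance for each population called none of these genes.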

How the data were processed

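Read counts per gene symbol for 16 libraries were deposited by the authors, raw and not normalised, with entries for reads in no gene left out of totals and tests (13.7% to 30.4% of reads). The authors also deposited RPKM, which corrects for gene length and depth, with mm10 coordinates. The submitters' processing notes name HTSeq 0.5.4p1, CASAVA 1.8.2 and mm10. The aligner and annotation are not given in the sources used here. Per the labels, the TruSeq v2 kit was used, which does not mark strand.

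Counts were tested with edgeR 4.0.16 in R 4.3.3 (TMM scaling, filterByExpr, quasi-likelihood F test, Benjamini-Hochberg over all genes tested, threshold 0.05). KO against WT was fitted within each population, and WT populations and differences of KO effects in fits of a pair of populations. A pair fit shares its estimate of the spread of a gene between both populations. The spread was wider in cTEC (0.652) than in mTEClo (0.131) or mTEChi (0.113), so SE and p-values involving cTEC can be too small. SE came from the F statistic. CPM used TMM factors over all libraries. RPKM served to compare genes and ± is an SD. Alternatives were RLE scaling, DESeq2 1.42.0, no filter, voom in limma 3.58.1, one fit of all libraries, a replicate block and leaving out each library. The procedure was tested on simulated data.

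Named genes were the 12 with the highest group mean RPKM, the 3 smallest p-values per direction between WT populations and, in KO comparisons, the 2 smallest where none passed, with genes outside this rule marked as chosen after their values were seen. The members and lists were chosen with earlier results of these data known. Promoters came from RefSeq (GRCm38.p6), and exon overlaps from GENCODE.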

Additional observations from a re-analysis of the deposited data

Results flagged for a closer look

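For 9 values the effect of losing Psmb11 differed between populations by edgeR's test of the difference itself, and no explanation is weighed here. Col4a5 had an effect in cTEC below that in mTEClo, by -1.15 (SE 0.20, adjusted p = 0.0132) on the log2 scale, from values of −0.88 in cTEC and 0.27 in mTEClo. Col6a2 had a larger effect in cTEC than in mTEClo, by 0.73 (SE 0.14, adjusted p = 0.0193), and than in mTEChi, by 0.66 (SE 0.14, adjusted p = 0.0284). Col5a1 differed by 0.63 (SE 0.14, adjusted p = 0.0321) from mTEClo and by 0.62 (SE 0.07, adjusted p = 0.00247) from mTEChi. For Col5a3 the differences were 1.25 (SE 0.31, adjusted p = 0.0485) and 1.197 (SE 0.25, adjusted p = 0.0309). Col1a1 and Col6a5 differed from mTEChi, by 1.404 (SE 0.28, adjusted p = 0.025) and 0.99 (SE 0.19, adjusted p = 0.0226).

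Each of these genes had an effect within cTEC that missed the threshold, and both cTEC groups hold 2 libraries. The fits of the difference shared their estimate of spread with a less variable medullary population, so these p-values can be too small. Of all genes, 4.68% and 5.35% were called in these comparisons, so the 4 of 44 and 5 of 44 collagen genes stand beside that background. None of the 9 differences was called by either voom fit. The number of collagen genes called moved when 1 library was left out, and calls among all genes moved between settings as well. Leaving out a cTEC library leaves 1 in its group, so counts from those fits are not given.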

How the results depend on the processing

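Under the alternatives run, the WT comparisons went from 27 calls to 22 to 32 for cTEC against mTEClo, from 30 to 27 to 35 for cTEC against mTEChi and from 39 to 33 to 39 for mTEChi against mTEClo, and no named value changed direction. RLE scaling moved the median of all genes from −0.24 to −0.42 for WT cTEC against WT mTEChi, and the collagen calls there from 13 higher and 17 lower to 13 and 18. KO against WT in cTEC went from 0 calls to 8 with DESeq2, 5 with no filter on low counts, 7 with a voom weight per library and 18 in one fit of all 16 libraries, and stayed at 0 with RLE scaling and with a voom variance per population. Leaving out 1 cTEC library also gave calls, though such a fit leaves 1 library in a group. Calls among all genes for KO against WT in cTEC ranged from 0 to 4700 over the settings run. DESeq2 gave 3 calls for KO against WT in mTEClo, where calls among all genes ranged from 0 to 318 over the settings run. For the KO effect in cTEC against that in mTEClo, 4 calls became 9 with DESeq2, 9 in one fit of all 16 libraries, and 0 in both voom fits, and 1 to 14 without 1 library. For cTEC against mTEChi, 5 became 14 with DESeq2, 12 in one fit of all 16 libraries and 0 in both voom fits, and 1 to 19 without 1 library. The cause of these changes was not tested.

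Replicate numbers are shared between groups, and the labels name no shared animal, so the numbers were not taken as pairs. The correlation of deviations between genotypes was −0.01 to 0.06 for the same number and −0.06 to 0.03 for different numbers. In cTEC, with 2 libraries per group, such values can differ only in sign, so they cannot decide on pairing. Thymocyte markers summed highest in replicate 1 of each medullary group. That replicate read 61.9 CPM in WT and 83.2 in KO mTEClo, and 116 in WT and 169 in KO mTEChi. With the replicate block, KO against WT in cTEC gave 8 calls and the difference between cTEC and mTEClo 1. Among WT calls, the block ended that of Col4a1 for cTEC against mTEClo. Of the values for single genes, 1293 kept their side of the threshold, 108 lost it and 17 gained it. The cTEC comparisons rest on 2 libraries per group, and where 1 of them is left out the lone library is assumed to vary like the others in the fit.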
